A study of Mus musculus with 4 samples.

Results

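The cells described here are 216 of the 15451 deposited cells, those that the authors marked as doublets of a microglia and a T cell, and they are called marked cells below. They were taken by that mark alone. All 216 carried the microglia class, none had a microglia state and none had the authors' other doublet mark. The series profiled CD45+ cells of the cortex of 18-month-old mice by 10x 3′ single-cell RNA sequencing, in 2 libraries of ADAM mice (APP/PS1 Axl-/- Mertk-/-) and 2 libraries of AD mice (APP/PS1). All mice carried the APP/PS1 transgenes, so the AD libraries are the controls for the loss of the receptors Axl and Mertk and not for amyloid pathology. Each library pooled 2 cortices. ADAM 1 held 0 marked cells and ADAM 2 held 4, against 209 in AD 1 and 3 in AD 2, so nearly everything below describes 1 library.

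Microglia are the resident macrophages of the brain and are recognised by complement C1q, Csf1r and Trem2. Near amyloid plaques they pass from a homeostatic programme to the disease-associated (DAM) programme, which includes Apoe, Spp1 and Cst7. T cells are rare in the young brain and are found in greater number in old or amyloid-bearing tissue, and they carry the T cell receptor with its CD3 chains. A droplet that captures a microglia and a T cell together returns 1 barcode with the transcripts of both, and such a doublet usually holds more unique molecular identifiers (UMIs, each standing for 1 captured transcript) than a single cell.

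The label was checked first against the depth and the markers of the cells. In AD 1 the marked cells had a median of 812 UMIs per cell (range 508 to 5914), against 4719.5 in the 1600 microglia with a state, 2925.5 in the 1022 cells of the T and NK class (T_NK) and 11478 in the 134 AD 1 cells with the other doublet mark, which carry no class. The marked cells were thus shallower than each kind of cell that the label combines. In 207 of 209 marked cells the UMI count lay below the microglial median, and in 145 it lay below that of the shallowest doublet without a class. Their median gene number was 575, against 1778 in microglia and 1172 in T_NK cells. The median share of mitochondrial UMIs was 1.82% in marked cells, against 2.98% in microglia and 3.1% in T_NK cells.

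**Figure D1:**
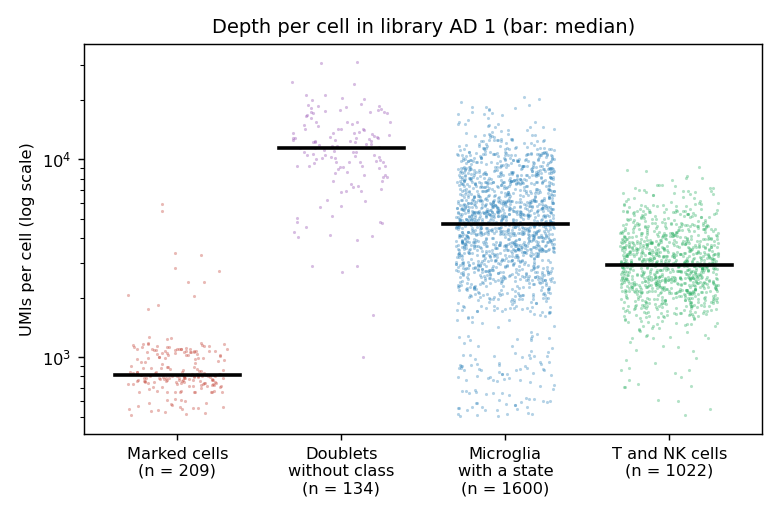
UMIs per cell on a log scale in the 4 sets of AD 1 cells, each point 1 cell and each bar a median. The marked cells sit around 812 UMIs, below the medians of microglia (4719.5), of T_NK cells (2925.5) and of doublets without a class (11478).

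The doublet score that the authors deposited for each cell was lower in the marked cells than in microglia and in doublets without a class. It was higher than in microglia and T_NK cells of like depth. Its median was 0.083 in marked cells, against 0.246 in microglia, 0.074 in T_NK cells and 1.61 in the doublets without a class. None of the 209 marked cells reached the median score of the doublets without a class, and 23 lay above the median of microglia. Among cells under 1500 UMIs the order differed. The median was 0.0771 in 197 marked cells, against 0.00693 in 108 microglia with a state and 0.0279 in 46 T_NK cells. Microglia state 2 had 78 cells in AD 1, with a median of 808.5 UMIs, an upper quartile of 1024 and a median of 5.19% mitochondrial UMIs. Microglia under 1500 UMIs, here and below, were thus largely of state 2. The median depth of the marked cells was 21.9% of that of all AD 1 cells, and their score was not low beside cells of like depth. The mark is used here only as the rule that chose them. What brought about the mark was not tested.

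A group of 12 marked cells in AD 1 stood apart in depth, with 1745 to 5914 UMIs, while the other 197 held 508 to 1264. The 12 cells had a median doublet score of 0.503, against 0.077 in the 197. A limit of 1500 UMIs, set after the values were seen, separates them, and results are given with and without the 12 where these decide a value.

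The marked cells held transcripts of both cell types, but few of the T cell. Over 18 T cell genes, which encode CD3 chains, receptor constant regions and signalling proteins of T cells, a marked cell held 2.83 UMIs on average, against 0.31 in a microglia and 36.9 in a T_NK cell. The mean of a marked cell was 7.67% of that of a T_NK cell (95% counting interval 7.06 to 8.32%). Among the 209 cells, 21 had no T cell list UMI, 48 had 1, 124 had 2 to 5 and 16 had more, with a highest value of 16. Only 3 marked cells reached 15 UMIs, the 5th percentile of T_NK cells. Intervals here and below cover counting error only.

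The microglial content was reduced as well. Over 16 microglia genes a marked cell held 80.6 UMIs on average, 12.8% of the 627 of a microglia (interval 12.65 to 13.04%), against 9.64 in a T_NK cell. The doublets without a class held 21.0 T cell list and 1141 microglia list UMIs per cell, so they lay above the marked cells on both lists. The share of a cell's UMIs that fell on the microglia list was narrow among marked cells, with quartiles of 7.56% and 8.85% around a median of 8.14%, against quartiles of 9.71% and 14.3% around 11.8% in microglia.

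**Figure D2:**
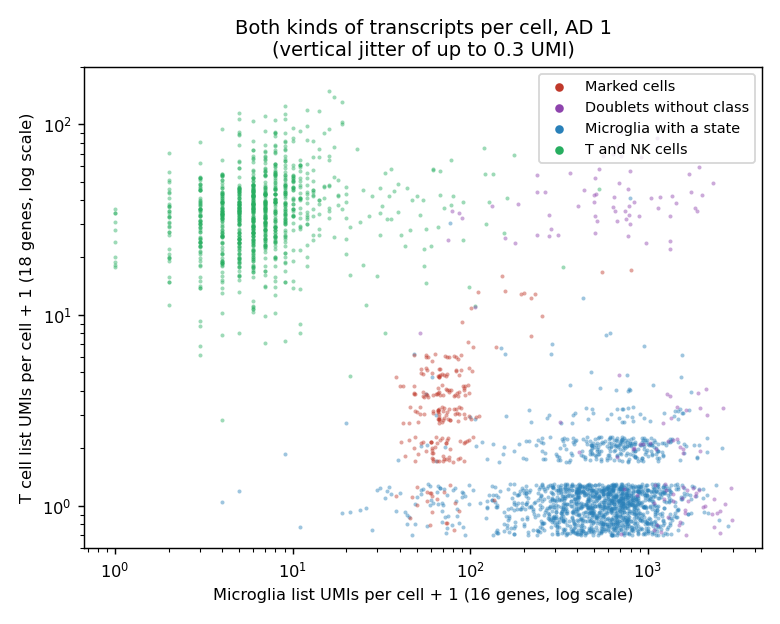
T cell list UMIs (18 genes) against microglia list UMIs (16 genes) per cell, both plus 1 and on log scales, in AD 1. Marked cells had medians of 68 microglia list and 2 T cell list UMIs. Most form a compact group apart from most T_NK cells (median 34 T cell list UMIs) and most doublets without a class (medians 1095 and 8.5). The 12 deeper marked cells reach up to 800 microglia list and 16 T cell list UMIs. Microglia under 1500 UMIs, with medians of 71 and 0, lie near the group.

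Cd3e and C1qa, a marker gene of each cell type in the label, were present at intermediate levels. Cd3e, a CD3 chain of the T cell receptor complex, had 148 CPM (counts scaled to a common total of the summed UMIs of a set, the same for each set) in marked cells, against 1.28 CPM in microglia and 946 CPM in T_NK cells. C1qa, a chain of complement C1q, had 5210 CPM in marked cells, against 10123 CPM in microglia and 155 CPM in T_NK cells. Marked cells were between the 2 cell types for both genes.

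Because shares of cells with a UMI depend on depth, each cell was thinned to a fixed number of UMIs. At 500 UMIs, a depth chosen after the values were seen and at which all 209 marked cells could be kept, 4.78% of marked cells had a Cd3e UMI (interval 2.32 to 8.62%), against 0.125% of microglia and 36.2% of T_NK cells. At least 1 of the 18 T cell genes was seen in 75.6% of marked cells (69.2 to 81.3%), against 3.38% of microglia, 12.04% of the microglia with a state and under 1500 UMIs, and 99.2% of T_NK cells. The share in microglia, which should lack these genes, serves as the background, and the marked cells lay far above it. No marked cell had a state, so the background held none of them, and how the mark was made is not described. Whether the choice of cells by the mark set this difference was not tested. Cd3e and C1qa together were seen in 3.35% of marked cells at 500 UMIs, in 12.5% of the 64 that could be thinned to 1000 UMIs and in 60% of the 10 that could be thinned to 2000 UMIs (interval 26.2 to 87.8%). The value at 2000 UMIs excludes 199 of the 209 marked cells. Without thinning, both genes were seen in 12.9% of marked cells, 0.625% of microglia and 23.9% of T_NK cells.

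On the CPM scale, which divides by the total of a set but leaves levels that still varied with depth, all 18 T cell genes were higher in marked cells than in microglia by at least 2-fold, and 17 of 18 were lower than in T_NK cells by at least 2-fold. The background was wide: of 7334 genes with at least 20 CPM in marked cells, microglia or T_NK cells, 23.4% were at least 2-fold higher in marked cells than in microglia and 4.09% at least 2-fold lower, while 34.1% were at least 2-fold higher than in T_NK cells and 10.3% at least 2-fold lower. That split depended on the scaling: 1717 genes were higher and 300 lower than in microglia in CPM, against 1144 and 819 when scaled by the trimmed mean of M values (TMM), and 2500 were higher and 757 lower than in T_NK cells in CPM, against 1957 and 1378 with TMM. With 1 library these are size rules and carry no test. The level of the 18 genes in marked cells ranged from 15.6% to 54.7% of that in T_NK cells, with a median of 30.5%. Ms4a4b, a membrane protein of T cells, had 448 CPM in marked cells, against 6.06 CPM in microglia and 1901 CPM in T_NK cells. Trbc2, a constant region of the receptor β chain, had 419 CPM in marked cells, against 6.64 CPM in microglia and 1810 CPM in T_NK cells.

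The T cell side leaned to CD8 cells, as the T_NK class did. Marked cells held 56 UMIs of Cd8a and Cd8b1, the 2 chains of the CD8 co-receptor, and 8 UMIs of Cd4, a ratio of 7.0 (interval 3.32 to 17.0), against 15.6 in T_NK cells (13.6 to 17.8). Among the 209 cells, 45 had a CD8 UMI, 8 had a Cd4 UMI and 1 had both. Over 11 cytotoxic genes marked cells had 4890 CPM, against 3114 CPM in microglia and 12452 CPM in T_NK cells, with Ccl5, a chemokine of activated CD8 cells, at 1532 CPM in marked cells, 37.1 CPM in microglia and 8136 CPM in T_NK cells. Nkg7, a protein of cytotoxic granules, had 438 CPM in marked cells, 7.46 CPM in microglia and 2233 CPM in T_NK cells. Part of the level of this list in microglia came from Cst7, a cystatin that the DAM list also holds. The list had 241 CPM in microglia state 0 and 6075 CPM in microglia state 5. Its sum in marked cells is therefore not a measure of the T cell side alone. Cxcr6, a chemokine receptor of tissue-resident T cells, had 158 CPM in marked cells, against 1.4 CPM in microglia and 688 CPM in T_NK cells.

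On the microglial side, 16 of 16 genes of the microglia list were at least 2-fold higher in marked cells than in T_NK cells, and in CPM none was 2-fold lower than in microglia. With TMM the median log2 ratio of the list to microglia was -0.95 and the ratio of its sums 0.548, so C1qa and others then passed 2-fold. Levels in marked cells ranged from 51.5% of the microglial level for C1qa to 88.8% for Grn, with a median of 67.2%. Cst3, a cystatin that microglia secrete, had 32509 CPM in marked cells, against 44059 CPM in microglia and 1345 CPM in T_NK cells. Ctsd, a lysosomal protease, had 10849 CPM in marked cells, against 12849 CPM in microglia and 531 CPM in T_NK cells. Axl, one of the receptors that ADAM mice lack, had 88.6 CPM in marked cells and 104 CPM in microglia. Mertk, the other, had 227 CPM in marked cells and 274 CPM in microglia.

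Genes of the homeostatic and the DAM programme were present together. The 16 homeostatic genes summed to 15149 CPM in marked cells and 21314 CPM in microglia, and the 18 DAM genes to 50080 CPM in marked cells and 55743 CPM in microglia. The ratio of DAM to homeostatic CPM was 3.31 in marked cells (interval 3.17 to 3.44), against 2.62 in all microglia with a state, 0.536 in microglia state 0 and 6.11 in microglia state 5, the 2 states with the most AD 1 cells. Microglia under 1500 UMIs had a ratio of 1.55. The ratio of marked cells was 1.26 times that of all microglia with a state, but 1.1 times without the 12 deeper cells. Apoe, a lipid carrier of the DAM programme, had 22024 CPM in marked cells and 20979 CPM in microglia. P2ry12, a purinergic receptor of homeostatic microglia, had 763 CPM in marked cells and 1206 CPM in microglia. Spp1, a secreted DAM protein, had 6319 CPM in marked cells and 4203 CPM in microglia, but 2707 CPM in the 197 marked cells under 1500 UMIs, so the 12 deeper cells decided which set was higher.

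Genes of cell types outside the label were also present. The 9 neutrophil genes summed to 980 CPM in marked cells (849 to 1126), against 183 CPM in microglia and 17.9 CPM in T_NK cells. S100a8 and S100a9, calcium-binding proteins of neutrophils, had 276 and 350 CPM in marked cells, against 10.3 and 5.24 CPM in microglia and 5.25 and 4.64 CPM in T_NK cells. Microglia under 1500 UMIs had 299 and 221 CPM of the same genes, so S100a8 was not higher in marked cells than in microglia of like depth. The 30 AD 1 cells of the neutrophil class had 240024 CPM for this list. Of its defining markers, Ly6g had no UMI in marked cells, and 8 of the 9 genes had at least 1. The 7 monocyte genes summed to 704 CPM in marked cells, against 66.1 CPM in microglia and 554 CPM in T_NK cells. The 8 B cell genes summed to 404 CPM in marked cells, against 228 CPM in microglia and 63.96 CPM in T_NK cells, with Ms4a1 and Ebf1 at 0 UMIs in marked cells. The 7 oligodendrocyte genes summed to 251 CPM in marked cells, against 65.5 CPM in microglia and 86.8 CPM in T_NK cells. Neutrophil, monocyte, B cell and oligodendrocyte lists were thus higher in marked cells than in both cell types of the label, at levels low beside the T cell and microglia lists, except that the monocyte list stood at 0.985 times the T_NK level with TMM. Against microglia under 1500 UMIs the ratio was 1.32 for the neutrophil list (0.998 to 1.77) and 1.3 for the monocyte list (0.933 to 1.84), with intervals that held 1, and 1.66 for the B cell list (1.03 to 2.79) and 2.84 for the oligodendrocyte list (1.34 to 6.93).

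The marked cells were therefore set beside another profile, the summed UMIs of all 3032 other AD 1 cells. Of these UMIs, 58.1% came from microglia with a state, 21.9% from T_NK cells and 10.7% from doublets without a class. The profile is thus itself largely a sum of the cell types in the label, and a level close to it is not distinct from a mixture of them. Many list levels in CPM lay close to it. The T cell list had 2911 CPM in marked cells and 2963 CPM in the other cells, a ratio of 0.98 (interval 0.90 to 1.07). The microglia list had 82924 CPM in marked cells and 81506 CPM in the other cells, a ratio of 1.02 (1.0 to 1.03). The CD8 list stood at 276 CPM in marked cells and 281 CPM in the other cells, the homeostatic list at 15149 and 14814 CPM, and the MHC class II list at 4462 and 4729 CPM. Scaled by TMM, which lowers each log2 ratio of marked cells to the other cells by 0.33, the ratios were 0.782 for the T cell list, 0.81 for the microglia list and 0.814 for the homeostatic list, so how close the levels lay depended on the scaling. In CPM, each of the 18 T cell genes and of the 16 microglia genes was within 2-fold of the other cells, and the interval of the ratio held 1 for 15 of the 18 T cell genes, 4 of the 16 microglia genes and 7 of the 18 DAM genes. Marked cells held 591 UMIs of the T cell list and 16838 of the microglia list, so intervals of T cell genes were wider. These counts therefore do not measure closeness, and the share of all genes with such an interval was not counted. The background here was 17.9% of 7334 genes at least 2-fold higher in marked cells and 3.08% at least 2-fold lower; among the 622 genes with at least 200 CPM in the other cells it was 3.05% and 2.09%, and among the 528 genes with at least 50 UMIs in marked cells 9.66% were higher.

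**Figure D3:**
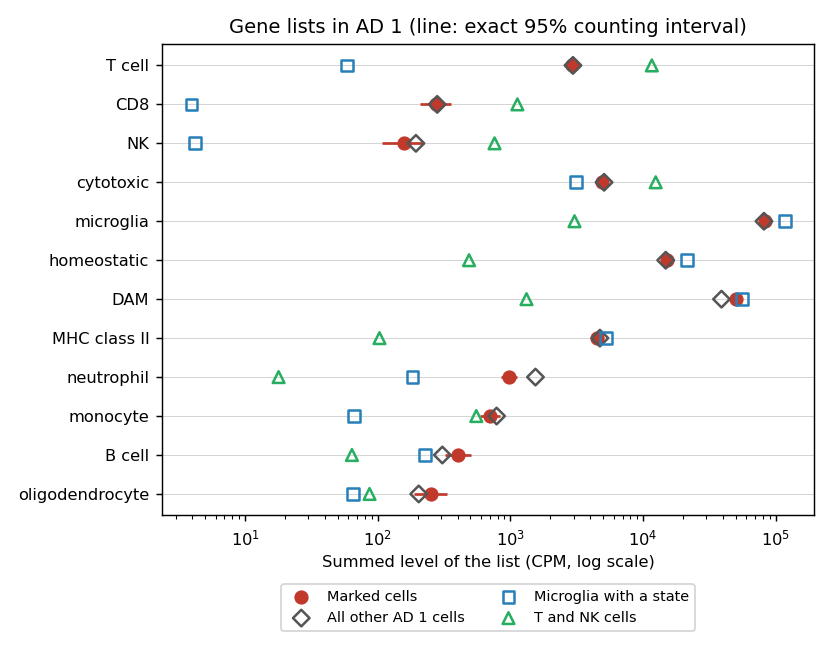
Summed levels in CPM (log scale) of 12 gene lists in marked cells, all other AD 1 cells, microglia and T_NK cells. For the T cell, CD8, microglia and homeostatic lists the marked cells lie on the sum of all other AD 1 cells and between microglia and T_NK cells, while for neutrophil and oligodendrocyte genes they lie above both cell types.

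The neutrophil list was lower in marked cells than in the other cells, at 980 and 1546 CPM, a ratio of 0.63 (0.55 to 0.73), and at 0.76 (0.66 to 0.87) without the 12 deeper cells. The monocyte list stood at 704 CPM in marked cells and 788 CPM in the other cells, and the oligodendrocyte list at 251 and 204 CPM, with intervals of both ratios that held 1; without the 12 deeper cells the ratio was 1.5 for the oligodendrocyte list (1.11 to 1.97). Lists that stood higher in marked cells included MHC class I, at 11696 CPM in marked cells and 8979 CPM in the other cells (ratio 1.30, 1.25 to 1.36). Immediate early genes stood at 12696 and 8693 CPM (1.46, 1.4 to 1.52), and DAM at 50080 and 39002 CPM (1.28, 1.26 to 1.31). With TMM these 3 ratios were 1.04, 1.16 and 1.02, and in CPM without the 12 deeper cells they were 1.34, 1.65 and 1.16. Intervals also lay above 1 for the neuron list (10.2, 3.89 to 22.6) and the B cell list (1.31, 1.04 to 1.64). The same held for the T cell residency and checkpoint list (1.25, 1.09 to 1.43). With TMM these ratios were 8.10, 1.05 and 0.996. No neuron gene reached 20 CPM in marked cells, microglia or T_NK cells. The choroid plexus list was lower in marked cells (0.614, 0.457 to 0.809). H2-Q7, an MHC class I gene whose reads may be shared with the near-identical H2-Q6, had 753 CPM in marked cells, against 288 CPM in the other cells. Egr1, an immediate early transcription factor, had 1010 CPM in marked cells, against 355 CPM in the other cells and 896 CPM in microglia under 1500 UMIs. The immediate early list as a whole was lower in marked cells than in microglia under 1500 UMIs (ratio 0.822, 0.769 to 0.877). Against those microglia the ratio was 1.88 (1.71 to 2.06) for MHC class I and 1.31 (1.26 to 1.37) for DAM.

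Across 7334 genes, the correlation of log2(CPM + 10) of marked cells was 0.888 with all other AD 1 cells, 0.883 with the best-fitting mixture of microglia and T_NK cells, which held 24.0% T_NK, 0.879 with the doublets without a class, 0.840 with microglia, 0.756 with microglia under 1500 UMIs and 0.648 with T_NK cells. These are correlations across genes of the same library and serve as a description. The sets differ in summed UMIs, with 90398 in microglia under 1500 UMIs, 203053 in marked cells and 14760804 in all other AD 1 cells. Counting error therefore weighs unequally on the correlations. The first 3 correlations differed little.

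Depth moved with these levels. In marked cells with 500 to under 750, 750 to under 1000, 1000 to under 1500 and at least 1500 UMIs, the T cell list had 2935, 2703, 2544 and 3883 CPM. In microglia with a state of the same depths it had 399, 435, 130 and 55.8 CPM. T cell transcripts thus made up a larger share of UMIs in shallow than in deep microglia, and in every depth range their share was higher in marked cells. The neutrophil list had 1239, 1235, 1053 and 83.2 CPM in the marked cells of rising depth. The 12 deepest cells therefore had few neutrophil transcripts (3 UMIs in all), together with 11.7 T cell list and 268 microglia list UMIs per cell, and each of the 12 had at least 1 T cell list UMI. The part of depth in the results was not tested.

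**Figure D4:**
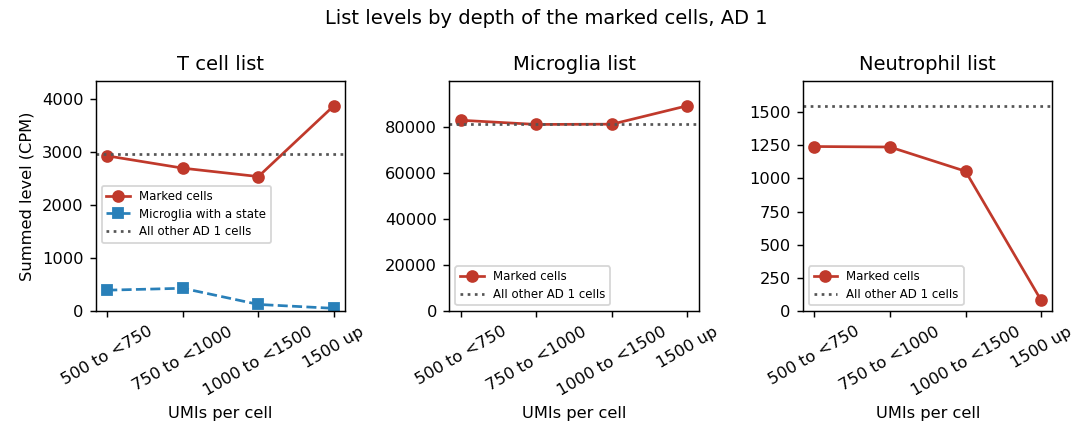
Summed CPM of the T cell, microglia and neutrophil lists in marked AD 1 cells of 4 depth ranges (57, 88, 52 and 12 cells), with microglia of the same depth for the T cell list and dotted lines for all other AD 1 cells. The neutrophil level falls to 83.2 CPM in the deepest range, where the T cell list stands at 3883 CPM.

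Genes outside the range spanned by microglia and T_NK cells were counted next. Of 7334 genes, 1594 (21.7%) had at least 1.5 times the higher of the 2 levels and 309 (4.21%) were below the lower level by the same factor. Most had few UMIs in marked cells, where 20 CPM stands for about 4 UMIs. Among the 528 genes with at least 50 UMIs in marked cells, 59 (11.2%) lay above both. TMM scaling lowers every log2 ratio of marked cells to microglia by 0.37, and 42 of those 59 genes remained. The 10 with the largest ratio were S100a9, Snhg9, S100a8, Dalrd3, Snrnp70, AC160336.1, Leng8, BC037034, Ddx17 and Arrb2, and all 10 remained above both under TMM.

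Apart from the 2 neutrophil genes, these were also above the other AD 1 cells and above microglia under 1500 UMIs. In those microglia depth and state cannot be told apart. Snhg9, a host gene of a small nucleolar RNA on chromosome 17 (positions 24719531 to 24719965, GRCm38), had 729 CPM in marked cells (148 UMIs), against 17.6 CPM in all other AD 1 cells, 33.2 CPM in microglia under 1500 UMIs, 16.5 CPM in microglia and 20.1 CPM in T_NK cells. It overlaps Rps2, a ribosomal protein gene on the other strand, which had 955 CPM in marked cells and 1986 CPM in all other AD 1 cells. Snrnp70, the U1-70K protein of the spliceosome on chromosome 7 (45376453 to 45395742), had 1891 CPM in marked cells (384 UMIs), against 258 CPM in the other AD 1 cells, 564 CPM in shallow microglia, 251 CPM in microglia and 299 CPM in T_NK cells. Ddx17, an RNA helicase on chromosome 15 (79527736 to 79546741), had 517 CPM in marked cells, against 102 CPM in the other AD 1 cells and 188 CPM in shallow microglia. Arrb2, the β-arrestin 2 gene on chromosome 11 (70432635 to 70440828), had 414 CPM in marked cells, against 95.05 CPM in the other AD 1 cells and 166 CPM in shallow microglia. AC160336.1, annotated as a long intergenic RNA, shares its span with 5 other annotated genes or pseudogenes, so its 1276 CPM in marked cells, against 188 CPM in the other AD 1 cells, are uncertain in origin.

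**Figure D5:**
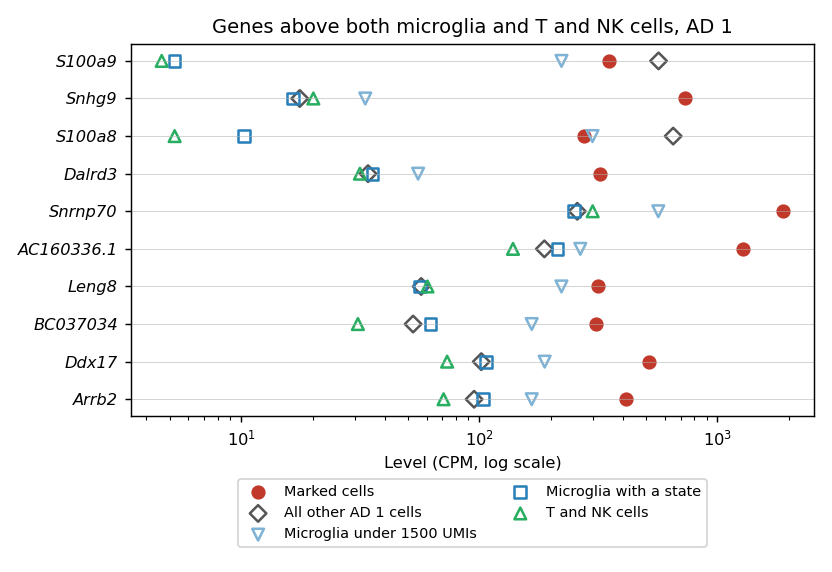
Levels in CPM (log scale) of the 10 genes that stood furthest above both cell types, in marked cells, all other AD 1 cells, microglia under 1500 UMIs, all microglia and T_NK cells. The 8 genes other than S100a8 and S100a9 were highest in marked cells, such as Snhg9 at 729 CPM against 33.2 CPM in microglia under 1500 UMIs.

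Several gene families were then counted, which were chosen after the values were seen and so describe only. Of 10 SR splicing factors in range, 5 were at least 2-fold higher in marked cells than in all other AD 1 cells and none was 2-fold lower, with a median log2 ratio of 0.83, beside 17.9% of all 7334 genes at least 2-fold higher and a median of 0.22. Other families of RNA-binding proteins stood nearer to all genes: 2 of 20 hnRNP genes (median 0.16) and 5 of 27 DEAD box helicases (median 0.09) were at least 2-fold higher. Srsf5, an SR factor, had 822 CPM in marked cells, against 263 CPM in the other cells and 531 CPM in shallow microglia. Of 4 CDC-like kinases, which phosphorylate SR proteins, 3 were at least 2-fold higher, with a median of 1.16, and Clk1 had 379 CPM in marked cells, 177 CPM in the other cells and 387 CPM in shallow microglia. Shallow microglia over all microglia had median log2 ratios of 0.40 for the SR factors and 1.02 for the kinases, beside 0.54 over all genes. All 13 mitochondrially encoded genes had lower values in marked cells than in the other cells, by a median of 0.58 on the log2 scale, and 0 were 2-fold lower. Their sum was 21807 CPM in marked cells, against 31851 CPM in the other cells and 44935 CPM in shallow microglia. The 102 genes taken as ribosomal protein genes by the start of their symbol alone, 90 of them in range, summed to 144691 CPM in marked cells. The sum was 207160 CPM in the other cells and 82590 CPM in shallow microglia. With TMM the median over the other AD 1 cells kept its sign for the SR factors, the kinases and the mitochondrial genes, while it became -0.16 for the hnRNP genes, -0.24 for the helicases and -0.11 over all genes.

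Genes with the largest ratios to 1 cell type came mostly from the other. Gimap4 and Gimap3, GTPases of lymphocytes, had 310 and 542 CPM in marked cells, against 2.33 and 4.43 CPM in microglia and 565 and 718 CPM in T_NK cells. Both stood above all other AD 1 cells, where they had 144 and 181 CPM. Mlxipl, a glucose-responsive transcription factor also known as ChREBP, had 251 CPM in marked cells, against 77.5 CPM in microglia, 1.85 CPM in T_NK cells and 53.7 CPM in all other AD 1 cells. Cd33, a sialic acid binding receptor of myeloid cells, had 527 CPM in marked cells, against 222 CPM in microglia, 5.25 CPM in T_NK cells and 159 CPM in all other AD 1 cells. Microglia under 1500 UMIs had 431 CPM of Cd33 and 111 CPM of Mlxipl. At the other end, Hopx, a homeodomain protein without DNA binding, had 19.7 CPM (4 UMIs) in marked cells, against 238 CPM in T_NK cells. Runx3, a transcription factor of CD8 cells, had 34.5 CPM (7 UMIs) in marked cells, against 385 CPM in T_NK cells. Taok3, a kinase, led the genes below both cell types with 14.8 CPM (3 UMIs) in marked cells, against 69.3 CPM in microglia and 62.7 CPM in T_NK cells. The other 9 genes named by size below both had 2 to 5 UMIs each in marked cells, so their levels are imprecise.

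Across the libraries, the share of microglia class cells that carried the mark was 0% in ADAM 1 (0 of 2317 cells, with an exact upper bound of 0.159%, or 0.129% by the limit of 3 counts) and 0.194% in ADAM 2 (interval 0.0528 to 0.495%), against 11.6% in AD 1 (10.1 to 13.1%) and 0.0967% in AD 2 (0.0199 to 0.282%). The mean of the ADAM libraries was 5.73 percentage points below that of the AD libraries, and an exact two-sided permutation test over the 4 libraries gave p = 0.667, where the smallest p that 2 against 2 libraries allow is 0.33. The difference came from AD 1. Without it the ADAM mean was above AD 2 by 0.000219 points.

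AD 1 differed from the other libraries in more than the mark. Its median depth was 3704 UMIs per cell, against 4953 to 5457 in the other 3 libraries, and its T_NK share was 31.5%, against 18.0 to 18.9%. It held 396 cells under 1500 UMIs, of which 49.7% were marked, while ADAM 1, ADAM 2 and AD 2 held 237, 354 and 215 such cells, of which none was marked. Unmarked microglia under 1500 UMIs had T cell list levels of 175 CPM in ADAM 1, 123 CPM in ADAM 2, 321 CPM in AD 1 and 208 CPM in AD 2. The summed T cell list level of a whole library was 1377 CPM in ADAM 1, 1220 CPM in ADAM 2, 2962 CPM in AD 1 and 1341 CPM in AD 2. In comparisons between libraries, AD 1 and the mark cannot be told apart for the 209 cells. Of 24 barcodes found in more than 1 library, none belonged to a marked cell.

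The 7 marked cells outside AD 1 were unlike most of those in it. They held 3332 to 11505 UMIs, with doublet scores of 0.406 to 1.32, 305 to 895 microglia list UMIs and 0 to 20 T cell list UMIs. In ADAM 2 the 4 cells had 20, 19, 13 and 0 T cell list UMIs, and in AD 2 the 3 cells had 19, 9 and 14. The cell without T cell list UMIs also had the lowest score, at 0.406. Axl had 0 UMIs in the 4 ADAM 2 cells and 2 UMIs in the 3 AD 2 cells.

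Cells with both kinds of transcripts were finally counted by a rule that ignores the mark, at least 3 T cell list genes and at least 5 microglia list genes after thinning to 2000 UMIs. Shares are of the cells with at least 2000 UMIs, which alone could be thinned. Cells with both kinds of transcripts made up 11.01% of these in ADAM 1 (356 of 3234) and 7.002% in ADAM 2 (249 of 3556). They made up 6.86% in AD 1 (182 of 2653) and 6.07% in AD 2 (254 of 4182). The ADAM mean was 2.54 points above the AD mean (exact permutation p = 0.33, the smallest possible), a difference whose sign changed with the rule: it was 0.279 points with 5 T cell and 8 microglia genes, -0.234 points with 2 T cell and 3 microglia genes and -0.322 points with thinning to 500 UMIs. Most of the cells counted belonged to the T_NK class, with 296 in ADAM 1, 185 in ADAM 2, 104 in AD 1 and 188 in AD 2. Marked cells numbered 0, 2, 10 and 2 among them in the same libraries. In AD 1 only 10 of the 209 marked cells had enough UMIs to be kept. With thinning to 500 UMIs, which keeps the shallow cells, the rule found 57 cells in ADAM 1, 41 in ADAM 2, 80 in AD 1 and 35 in AD 2, and 31 of the 80 in AD 1 were marked.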

How the data were processed

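The deposited table holds raw UMI counts of 16798 genes by symbol in 15451 cells, with no normalization. The authors' table of cells gives the library, class, state, doublet marks, the mitochondrial percent and a doublet score, all as deposited; the making of the marks and of the score is not described in those sources. The build mm10 and the tools Cell Ranger 3.1.0 and Seurat 3.2.1.9002 come from the submitters' processing notes, with no step stated. No cell was removed and no doublet caller was run; the authors' marks define the cells.

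UMIs were summed over each set of cells of AD 1 and scaled to CPM. The members and the gene lists were chosen with earlier results of these data known. With nearly all marked cells in 1 library, genes were called by size only: among genes with at least 20 CPM in 1 of 3 sets, 2-fold from a set or 1.5-fold outside both, with 3 UMIs as floor. Ratios have exact binomial and CPM exact Poisson intervals at the 95% level. Library shares were compared by exact permutation. Genes named by size had at least 50 UMIs in the set where highest, up to 8 per direction against each cell type and 10 outside both, without predicted, ribosomal and mitochondrial genes; the text describes some of them. Members of gene lists, and genes described beyond these rules (Egr1, H2-Q7, Rps2, Srsf5, Clk1 and the gene families), were picked as examples after their values were seen. Positions are from GENCODE vM21 (GRCm38), where 16580 symbols matched once. Thinning drew UMIs without replacement with a fixed seed. Software was Python 3.11.15, numpy 2.4.6, scipy 1.17.1, pandas 2.3.3 and edgeR 4.0.16, for TMM factors only. The rule for genes above both cell types was tested on simulated data, as was the place of the T cell list between microglia and T_NK cells. The intervals were not tested in this way.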

Additional observations from a re-analysis of the deposited data

How the results depend on the processing

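Over 65 alternatives of 13 results, 3 turned the sign of a difference, 32 moved a value or count beyond its interval or 1.5 times, and 30 did neither, which for a difference means only that its sign held. The difference in the marked share (-5.73 points) was -3.21 over all cells and ran from -11.5 to 0.000219 points with 1 library left out, positive only without AD 1. The difference in cells with both lists (2.54 points) was 0.279 with 5 T cell and 8 microglia genes, -0.234 with 2 T cell and 3 microglia genes and -0.322 with thinning to 500 UMIs, and ran from 0.535 to 4.54 with 1 library left out. No paired analysis was possible because the marked cells lie nearly all in 1 library and no fitted test was made.

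T cell list UMIs per marked cell, 7.67% of those of a T_NK cell, were 5.88% by medians, 6.1% without the tenth of marked cells with the most UMIs and 6.21% in marked cells under 1500 UMIs. Microglia list UMIs, 12.8% of those of a microglia, were 11.6%, 10.8% and 11.02% in the same order and 11.3% against microglia of all libraries. On the CPM scale the T cell list lay 24.6% of the way from microglia to T_NK cells, and 19.0% with TMM or 18.2% without ribosomal and mitochondrial genes; the microglia list lay 29.9% of the way, and 46.4% with TMM, 32.4% without those genes, 26.8% against the cells of all libraries and 31.1% in marked cells under 1500 UMIs.

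Genes 2-fold from microglia numbered 2017, and 3598 with 5 CPM as minimum, 1024 with 50 CPM and 909 at 3-fold. Genes 2-fold from T_NK cells numbered 3257, and 1932 with 50 CPM and 1893 at 3-fold. Genes above both numbered 1594, and 912 with TMM, 2663 with 5 CPM, 711 with 50 CPM and 846 at 2-fold. Genes below both numbered 309, and 785 with TMM, 105 with 50 CPM and 80 at 2-fold. These counts rest on few UMIs per gene.

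The share of marked cells with Cd3e and C1qa UMIs was 60% at 2000 UMIs, 12.5% at 1000, 3.35% at 500 and 12.9% without thinning. The DAM to homeostatic ratio of marked cells was 1.26 times that of microglia, 1.09 times without the tenth with the most UMIs, 1.1 times in marked cells under 1500 UMIs and 2.13 times that of microglia under 1500 UMIs. The ratio of Cd8b1 alone to Cd4 was 3.0, against 7.0 with Cd8a. Where a value moved, the cause was not tested. The alternatives on marked cells under 1500 UMIs, thinning to 500 UMIs and shallow microglia were chosen after seeing the data.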
